A study of Mus musculus with 14 samples.

Results

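The genes described here are 10 members of the natural killer and lectin receptor cluster of mouse chromosome 6, where they lie around Clec7a. They were chosen by name out of 55335 genes, with results of these data already known, and are Clec1a, Clec1b, Clec9a, Clec12a, Clec2d, Olr1, Klrd1, Klrk1, Klrb1c and BC064078. All 10 were present in the deposited gene lists. In the GENCODE annotation of GRCm38 the nearest was Clec1a (chr6:129424772-129452000, minus strand), which lies 9.6 kb from Clec7a (chr6:129461591-129472779, minus strand). Olr1 (chr6:129485244-129507165, minus strand) lies 12.5 kb away on the other side. Clec9a (chr6:129408862-129424763, plus strand) and Clec1b (chr6:129397297-129409335, plus strand) lie 36.8 and 52.3 kb away and overlap each other on the same strand. Clec12a (chr6:129342691-129365303, plus strand) is 96.3 kb away, Klrd1 (chr6:129591782-129598775, plus strand) 119 kb and Klrk1 (chr6:129610323-129623864, minus strand) 137.5 kb. Farther out are Clec2d (chr6:129180615-129186534, plus strand) at 275.1 kb, BC064078 (chr6:128992952-129008040, plus strand) at 453.6 kb and Klrb1c (chr6:128778485-128789215, minus strand) at 672.4 kb. BC064078 is annotated as a transcribed unprocessed pseudogene and the other 9 members as protein coding.

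Proteins of this cluster carry a C-type lectin-like domain and sit in the membrane, where they read ligands on other cells, on microbes or on dying cells. Some signal through activating motifs or adaptor proteins such as Tyrobp and Hcst, and others recruit phosphatases such as Ptpn6 and dampen a response. Clec7a itself is a receptor for fungal beta-glucan that microglia, the resident macrophages of the nervous system, switch on in neurodegeneration, and the Klr genes are best known from natural killer cells and T cells.

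Upstream sequences are shown for some of the members. For 4 members and Clec7a, the 250 bases before the RefSeq start (GRCm38.p6) are given because these genes are abundant in different cell classes: Olr1 in microglia of transgenic mice, Clec12a in border macrophages, Klrb1c in T and NK cells, Clec1b in ependymal cells and Clec7a in both microglia of SOD1 mice and border macrophages. RefSeq entries matched 7 of the 10 members, and none matched Clec1a, Klrd1 or BC064078. The Clec12a and Klrb1c starts in RefSeq lie inside the GENCODE gene spans. Capitals mark matches, on either strand, to GAGGAA (a core read by ETS factors), TGANTCA (the AP-1 core) and the interferon regulatory factor element, a pair of GAAA with any 2 bases between. Of 27025 windows of the same length, 23.1% held GAGGAA, 6.87% TGANTCA and 3.04% the interferon regulatory factor element.
Olr1, chr6:129507166-129507415, minus strand: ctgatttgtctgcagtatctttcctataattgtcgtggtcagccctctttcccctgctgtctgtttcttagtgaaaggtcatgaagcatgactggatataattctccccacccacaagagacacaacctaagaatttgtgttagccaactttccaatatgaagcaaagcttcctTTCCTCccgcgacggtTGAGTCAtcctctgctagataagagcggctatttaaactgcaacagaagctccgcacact
Clec12a, chr6:129349994-129350243, plus strand: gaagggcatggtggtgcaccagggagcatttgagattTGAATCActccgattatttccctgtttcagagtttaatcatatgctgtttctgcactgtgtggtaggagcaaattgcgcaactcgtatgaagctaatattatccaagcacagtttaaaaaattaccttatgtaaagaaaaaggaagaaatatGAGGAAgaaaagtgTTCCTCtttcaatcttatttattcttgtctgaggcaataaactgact
Klrb1c, chr6:128788642-128788891, minus strand: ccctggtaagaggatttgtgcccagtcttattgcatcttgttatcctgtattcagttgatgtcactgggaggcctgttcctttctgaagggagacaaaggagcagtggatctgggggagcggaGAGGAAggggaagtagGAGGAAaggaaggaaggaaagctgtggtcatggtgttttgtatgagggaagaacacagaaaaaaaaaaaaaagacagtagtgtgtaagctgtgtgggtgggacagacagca
Clec1b, chr6:129397047-129397296, plus strand: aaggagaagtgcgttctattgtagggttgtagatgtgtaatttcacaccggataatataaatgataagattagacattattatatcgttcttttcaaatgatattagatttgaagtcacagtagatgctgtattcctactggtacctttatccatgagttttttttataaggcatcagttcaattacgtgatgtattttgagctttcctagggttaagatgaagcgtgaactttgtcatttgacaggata
Clec7a, chr6:129472780-129473029, minus strand: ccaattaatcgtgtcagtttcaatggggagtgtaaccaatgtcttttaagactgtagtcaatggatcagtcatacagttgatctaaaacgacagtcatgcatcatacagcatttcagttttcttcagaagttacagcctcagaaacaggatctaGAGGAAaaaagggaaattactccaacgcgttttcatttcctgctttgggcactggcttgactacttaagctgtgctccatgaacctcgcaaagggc
The Clec12a window held 3 matches and the Olr1 window 2, in both cases GAGGAA and TGANTCA. Klrb1c held 2 GAGGAA matches, Clec7a held 1, and Clec1b held none of the letters searched. Of the windows not printed, Clec2d held 1 interferon regulatory factor element, and Clec9a and Klrk1 held none.

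Cells of the spinal cord, from mice at P115-120 day by the labels, were freed with enzymes, cleared of myelin and profiled by droplet single-cell RNA sequencing of transcript 3′ ends, in 14 libraries. The 4 groups were SOD1 (SOD1G93A mice of strain B6SJL-Tg(SOD1*G93A)1Gur/J, in which a transgene for mutant human SOD1 causes motor neuron disease, 3 libraries), SOD1_Clec7aKO (SOD1G93A with the Clec7a knockout, 4), nTg (no transgene, 3) and Clec7aKO (strain B6.129S6-Clec7atm1Gdb/J, 4). SOD1 and nTg are called Clec7a intact below, and SOD1_Clec7aKO and Clec7aKO knockout. The knockout is constitutive, so every cell carries it, and the labels name no strain for nTg. Effects of the missing gene, of sequence linked to the targeted allele and of strain background cannot be told apart in this design. The labels do not say how many animals gave a library, so p-values measure the spread between libraries.

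The libraries held 28819852 to 141204912 unique molecular identifiers (UMIs, 1 per captured RNA molecule) and 108892 barcodes, of which 89225 were kept as cells. Of all barcodes, 1504 sequences occurred in at least 2 libraries. Levels are given as CPM, the UMIs of a gene per 1000000 UMIs of a cell class in a library. They are not compared between genes, because transcript ends are captured with different efficiency. Clec7a checked the labels: it stood at 729, 841 and 850 CPM in SOD1 microglia and at 53.7, 33.6 and 97.1 in nTg, against 0.972 to 3.12 in all 8 knockout libraries.

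The members differed in the cell class where they were highest (the heat map of levels by class). Clec1a was highest in fibroblast-like cells (59.3 CPM, but from 30 UMIs in 93 cells), then in endothelial-like cells (28.6 ± 6.32, SD, n = 14 libraries) and in oligodendrocyte precursor-like cells, or OPC-like cells (11.9 ± 6.17, n = 14). Clec1b, which encodes the podoplanin receptor that activates platelets, stood at 23.2 ± 12.7 CPM in ependymal-like cells (n = 14), the ciliated lining of the central canal. Its next class, border macrophage-like cells, was at 2.07 from all libraries summed. Clec9a, a receptor for actin exposed by dead cells that is used by dendritic cells, had 205 UMIs in the 11 named classes, at 1.64 CPM in ependymal-like and 2.76 in border macrophage-like cells.

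Clec12a, an inhibitory receptor of myeloid cells, was a border macrophage gene at 296 ± 82.6 CPM (n = 12 libraries with at least 20 such cells), followed by neutrophil-like cells at 131. Olr1, a scavenger receptor for oxidized low-density lipoprotein, stood at 43.3 CPM in microglia-like, 24.4 in neutrophil-like and 13.6 in border macrophage-like cells, summed over libraries. The microglial level came from the transgenic groups (17.96 to 97.4 CPM), while nTg and Clec7aKO microglia lay at 0.787 to 6.03. Clec2d, a ligand of inhibitory natural killer receptors, was endothelial at 486 ± 142 CPM (n = 14), with 84.4 to 163 in the mural, fibroblast, T and NK, border macrophage and neutrophil-like classes and 29.1 in microglia-like cells. Its level in every named class was above 3 CPM.

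The 3 Klr members were T and natural killer (NK) cell genes. In the class of 749 T and NK-like cells, Klrk1, an activating receptor for stress-induced ligands, stood at 238 CPM, Klrd1, the partner chain of the Klrc receptors, at 157 and Klrb1c, an activating NK receptor, at 58.5. In the sub-cluster of 149 cells with NK genes the same genes stood at 776, 670 and 360 CPM. The highest level of Klrd1 in another class was 15.9 in border macrophage-like cells, and of Klrb1c it was 1.60 in microglia-like cells. BC064078 was highest in astrocyte-like cells at 61.2 ± 33.0 CPM (n = 14) and ependymal-like cells at 22.4 ± 6.73 (n = 14). It stood at 9.29 ± 8.72 in microglia-like cells (n = 14), with knockout and intact libraries far apart, as described next.

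**Figure D1:**
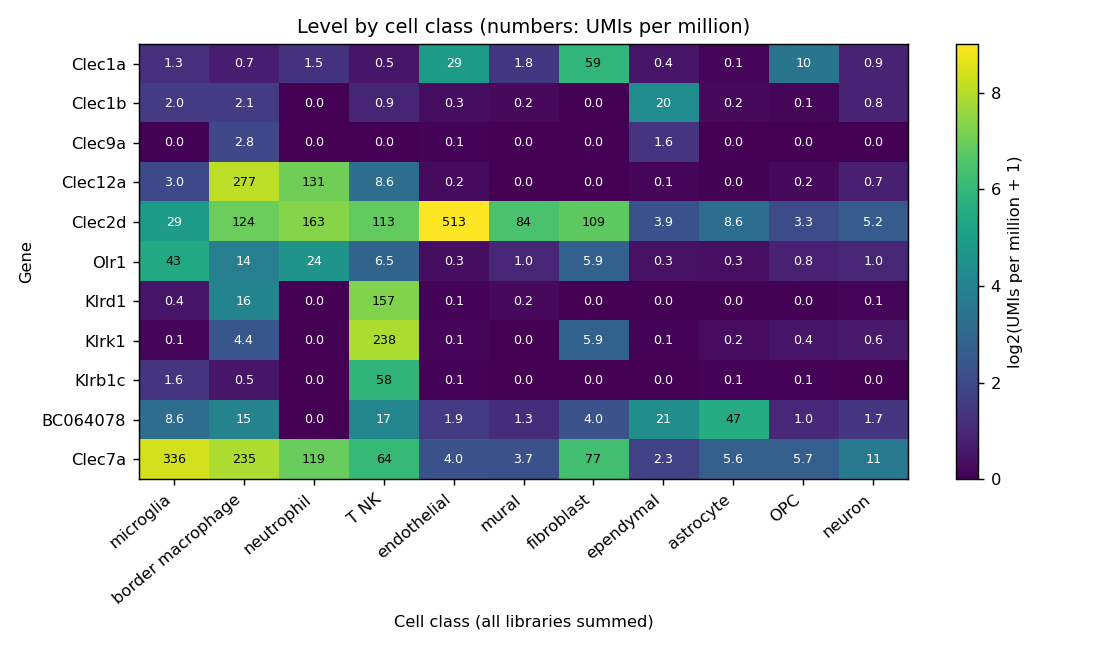
Heat map of the 10 members and Clec7a (rows) in 11 named cell classes (columns), with UMIs summed over 14 libraries and given as CPM, the number in each cell. Klrk1, Klrd1 and Klrb1c peak in T and NK-like cells (238, 157 and 58.5), Clec1b in ependymal-like (19.6), Clec2d in endothelial-like (513) and Clec12a in border macrophage-like cells (277).

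Microglia-like cells (40500) carried 8 of the 10 members at levels that could be fitted, Clec9a and Klrk1 being too low. The difference between knockout and intact microglia is given as a description with no test, because the members were chosen with it in view. Of all 16435 genes fitted, edgeR called 0.0365% in that contrast, and the libraries of both sides did not overlap for 0.0608%. BC064078 stood at 15.5, 16.1, 24.6 and 24.5 CPM in SOD1_Clec7aKO and 11.3, 11.1, 10.3 and 11.6 in Clec7aKO. In the intact groups it stood at 0.651, 1.32 and 0.781 in SOD1 and 1.07, 0.918 and 0.477 in nTg. Every knockout library was above every intact one, with a fitted log2 difference of 4.14 (SE 0.24).

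The same order held in each microglial cluster. Among clusters with at least 50 cells in a group, BC064078 lay between 9.41 and 22.6 CPM in knockout and between 0.470 and 1.55 in intact microglia. Microglia-like cells held 16.7% to 24.8% of the astrocyte level of BC064078 in knockout libraries and 1.28% to 3.00% in intact ones. Knockout microglia also stood above endothelial-like cells of the same library, at 302% to 673% of their level.

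Clec1a was the opposite case in microglia. It stood at 2.44, 1.57 and 3.10 CPM in SOD1 and at 0.988, 1.77 and 1.24 in nTg. In the knockouts it stood at 0.610, 0.571, 0.820 and 0.374 in SOD1_Clec7aKO and at 0.150, 0.176, 0.079 and 0.164 in Clec7aKO. The 8 knockout libraries lay below the 6 intact ones without overlap, with a log2 difference of -2.46 (SE 0.26). In clusters with at least 50 cells, Clec1a was at most 0.849 CPM in knockout and at least 0.912 in intact microglia. These Clec1a values rested on 439 UMIs in SOD1, 65 in nTg, 99 in SOD1_Clec7aKO and 11 in Clec7aKO. Endothelial marker genes in microglia-like cells had a median of at most 0.341% of their endothelial level. Clec1a itself was at 0.254% to 0.481% of its endothelial level in Clec7aKO microglia and 1.05% to 3.12% in SOD1_Clec7aKO. In SOD1 it was at 6.36% to 10.8% and in nTg at 3.38% to 10.9%. The part of endothelial RNA in the Clec1a values was not tested.

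Among the groups of microglia-like cells, Klrd1 was highest in nTg, at 2.53, 4.53 and 2.67 CPM. It stood at 0.139, 0.152 and 0.103 in SOD1, at 0.059, 0, 0.0234 and 0 in SOD1_Clec7aKO and at 0.0748, 0.044, 0.237 and 0.0821 in Clec7aKO. The nTg libraries stood apart from the other 11, while SOD1 and Clec7aKO overlapped. The groups lay in different microglial clusters: a cluster led by Tsix and Xist, genes of female cells, held 40.6% of nTg, 9.54% of Clec7aKO and 0.025% of SOD1 microglia. Within that cluster Klrd1 was at 2.69 CPM in nTg and 0.228 in Clec7aKO. In the 2 other clusters led by Crybb1 it was at 2.22 and 5.65 in nTg, 0.106 and 0.0315 in Clec7aKO and 0.738 (4 UMIs) and 0 in SOD1. The fitted log2 difference was -4.95 (SE 0.53) between Clec7aKO and nTg and -2.18 (SE 0.67) between SOD1_Clec7aKO and SOD1, where it rested on 1 to 12 UMIs in the libraries that had any. Each contrast has its own background: edgeR called 0.0304% of genes between Clec7aKO and nTg, where 3.82% did not overlap, and 0.0183% between SOD1_Clec7aKO and SOD1, where 8.76% did not overlap.

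Klrb1c was instead highest in SOD1 among the groups of microglia-like cells. It stood at 2.42, 3.23 and 5.54 CPM there (104, 255 and 376 UMIs), and the UMIs were 8, 0, 6 and 1 in SOD1_Clec7aKO, 5, 0 and 1 in nTg and 0 in all 4 Clec7aKO libraries. SOD1 libraries did not overlap with those of any other group, and SOD1_Clec7aKO was lower than SOD1 by a fitted log2 difference of -5.19 (SE 0.64). In the 5 microglial clusters not led by Crybb1 or Xist, Klrb1c was at 1.37 to 6.65 CPM in SOD1 and at most 0.127 in SOD1_Clec7aKO, and in the Crybb1-led clusters SOD1 cells had 1 UMI. Of transcript-end 60-base words of Klrb1c, 13.6% also occur in Klrb1a, Klrb1b or 2 related loci, so some molecules may belong to those.

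Markers of T and NK cells were looked for in the microglia-like cells that held these receptors. Of 16 such genes, 3 were common in microglia-like cells as a whole: Txk had a UMI in 4.79% of them, Cd5 in 3.99% and Sh2d1b1 in 3.67%. A UMI of any of the 16 lay in 119 of the 599 SOD1 cells with Klrb1c (19.9%), against 17.8% of all SOD1 microglia-like cells, and in 12 of the 142 nTg cells with Klrd1 (8.45%), against 9.84% of all nTg ones. For 8 of the 16, picked after these values were seen (Ncr1, Eomes, Prf1, Gzma, Cd3e, Cd3d, Cd3g and Trac), the counts over all groups were 14 of 619 cells with Klrb1c, 7 of 174 with Klrd1 and 292 of all 40500, so the share was higher in the cells with a receptor. In nTg alone they were 4 of 142 cells with Klrd1 and 48 of all 5205, and in SOD1 alone 14 of 599 with Klrb1c and 113 of all 11986. Ncr1 had 1 UMI in all microglia-like cells. The summed level of the T and NK marker list in SOD1 microglia-like cells was 0.278% to 2.74% of that in T and NK-like cells of the same library, beside 1.78% to 4.00% for Klrb1c. In nTg microglia-like cells the list was at 1.38%, 0.121% and 4.14%, beside 1.64% for Klrd1 in the 1 nTg library where that ratio was taken. By the median over the markers of the list, the share was 0.0137% to 0.0145% in SOD1 and 0% to 0.0345% in nTg. In endothelial-like cells, 4 cells held Klrb1c and 3 held Klrd1, out of 11661. The part of T and NK cells, or of their free RNA, in the Klrb1c and Klrd1 levels was not tested.

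The other 4 members overlapped between knockout and intact microglia. Clec1b stood at 3.18, 2.54 and 3.29 CPM in SOD1, 1.14, 1.96, 2.30 and 1.23 in SOD1_Clec7aKO, 0.988, 1.18 and 2.00 in nTg, and 0.673, 0.704, 0.553 and 1.23 in Clec7aKO. The SOD1 libraries were above the SOD1_Clec7aKO libraries, but the nTg and Clec7aKO libraries overlapped, and the log2 difference over both was -0.72 (SE 0.26). The difference was -0.51 (SE 0.43) for Olr1, 1.04 (SE 0.52) for Clec12a (0.45 without Clec7aKO replicate 1) and 0.15 (SE 0.23) for Clec2d.

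**Figure D2:**
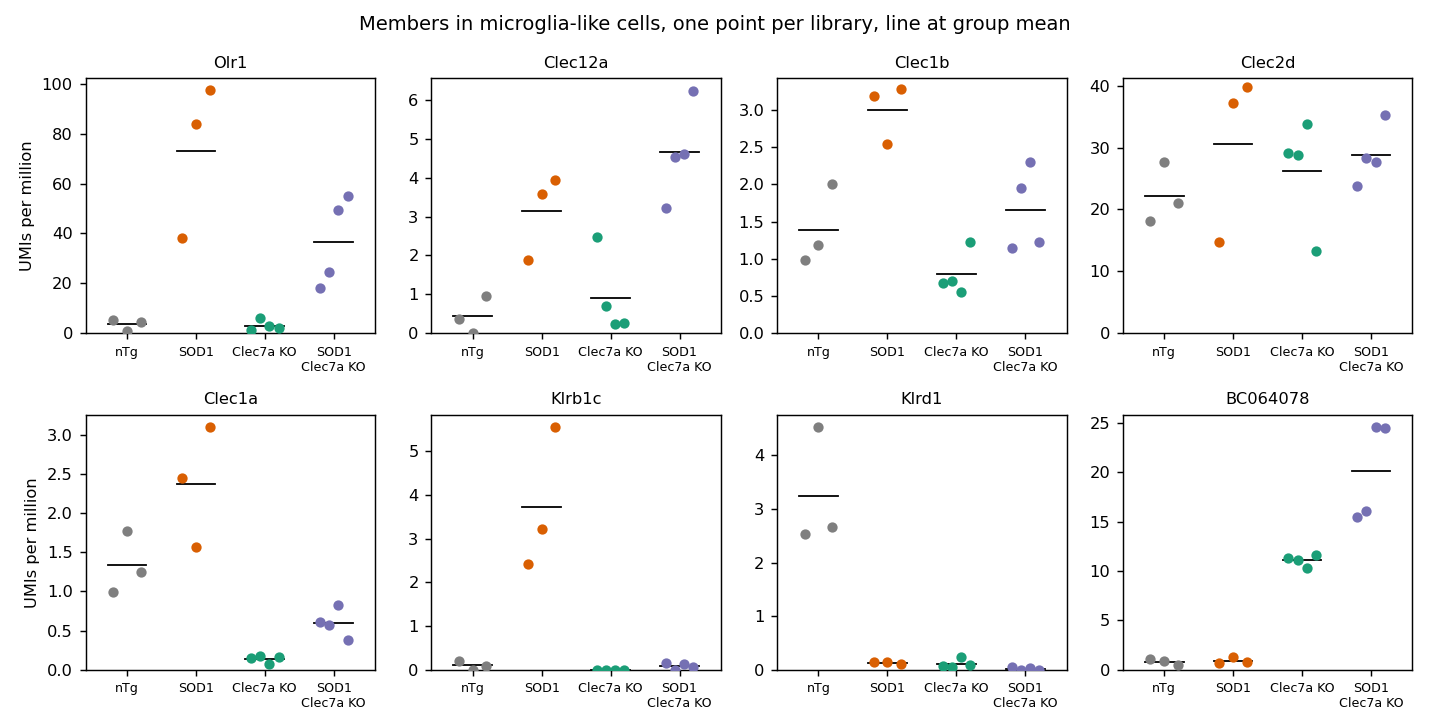
CPM of 8 members in microglia-like cells, 1 point for each library and a bar for each group mean, in the 4 groups. BC064078 is at 10.3 to 24.6 in the knockout libraries and at most 1.32 in the intact ones, Clec1a is lower in every knockout library, Klrd1 is high in nTg alone and Klrb1c in SOD1 alone.

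The transgene comparison asks which members differ between mice with and without mutant SOD1, in intact mice (SOD1 minus nTg) and in knockout mice (SOD1_Clec7aKO minus Clec7aKO). It was tested across all genes with edgeR's quasi-likelihood test and Benjamini-Hochberg adjustment, in which many genes changed. The labels give SOD1 and Clec7aKO mice different strains and name none for nTg. An effect of the transgene and an effect of strain background therefore cannot be told apart in these contrasts. In intact microglia 30.8% of 16435 genes were called, 18.5% higher and 12.3% lower, and in knockout microglia 43.3%, 24.1% higher and 19.1% lower. Of the 8 members fitted, 5 rose and 1 fell in intact mice, and 6 rose and none fell in knockout mice. Genes that pass only through their high group had to differ, so these counts are a description. The median log2 change of the 8 was 1.42 in intact mice, against 0.00 over all genes, and in knockout mice it was 1.58, the value of Clec1b, over the 7 members other than Klrb1c, which had no UMI in Clec7aKO.

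Olr1 had 38.3, 84.0 and 97.4 CPM in SOD1 against 5.18, 0.787 and 4.39 in nTg, and 18.0, 24.5, 49.4 and 54.9 in SOD1_Clec7aKO against 1.20, 6.03, 2.69 and 1.89 in Clec7aKO. Transgenic libraries were above non-transgenic ones in both cases, and 60% of all genes in intact and 41.6% in knockout mice did not overlap either. The log2 change was 4.84 (SE 0.72, edgeR adjusted p = 2.1e-04) in intact and 4.13 (SE 0.61, edgeR adjusted p = 1.1e-04) in knockout mice. Within the microglia, Olr1 was unevenly spread. It stood at 148 CPM in the cluster led by Il12b and Acod1 and 46.7 in that led by Dusp2, Ccl4 and Il1b, but at 10.5 in that led by Apoe and C1qa and at most 1.26 in the 3 clusters led by Crybb1 or Tsix. These clusters differed in size between groups: the one led by Il12b held 22.3% of SOD1 microglia, 9.27% of SOD1_Clec7aKO, 0.423% of nTg and 0.331% of Clec7aKO. The part of this shift in the Olr1 change was not tested.

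Clec12a had 1.88, 3.58 and 3.95 CPM in SOD1 against 0.356, 0 and 0.954 in nTg, without overlap, a log2 change of 3.45 (SE 0.83, edgeR adjusted p = 0.0059). In knockout mice it had 3.23, 4.53, 4.62 and 6.25 CPM with and 2.47, 0.704, 0.237 and 0.246 without the transgene, a log2 change of 2.70 (SE 0.62, edgeR adjusted p = 0.0032). In nTg, 9 of the 19 Clec12a UMIs lay in 1 cell. In the highest Clec7aKO library, 59 of the 66 UMIs lay in 1 cell, and its level without that cell was 0.262 CPM. Clec12a was at 7.74 CPM in the microglial cluster led by Il12b. It was at 15.3 in an unnamed cluster led by Gpnmb and Mmp12, which is not part of the microglia-like class. Summed over libraries, Clec12a was at 277 CPM in border macrophage-like and 131 in neutrophil-like cells. The part of such cells, or of their free RNA, in the microglial values was not tested.

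Clec1b rose by a log2 change of 1.58 (SE 0.38, edgeR adjusted p = 0.0065) in intact and 1.58 (SE 0.35, edgeR adjusted p = 0.0025) in knockout mice. In intact mice the call was lost with a term for Xist, a marker of the animals' sex (1.38, adjusted p = 0.053). Clec1a rose by 1.26 (SE 0.34, edgeR adjusted p = 0.012) in intact mice and by 2.50 (SE 0.41, edgeR adjusted p = 2.4e-04) in knockout mice. Its Clec7aKO level rested on 11 UMIs. In intact mice the Clec1a call was lost without SOD1 replicate 3 (adjusted p = 0.065), without nTg replicate 1 (0.064) and with the Xist term (0.15). In knockout mice Clec1a stayed below its intact level with the transgene, as the values per library above show.

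Klrb1c rose in intact mice by 5.43 (SE 0.79), and by 5.44 with no filter on low counts, a filter it passed through its SOD1 level. In knockout mice it passed the test as well (edgeR adjusted p = 0.040), with 15 UMIs in SOD1_Clec7aKO and none in Clec7aKO, and leaving out SOD1_Clec7aKO replicate 1, 3 or 4, nTg replicate 3, or Clec7aKO replicate 1, 2 or 3 ended that call (adjusted p 0.050 to 0.086). Klrd1 fell in intact mice by 4.16 on the log2 scale (SE 0.49), and by 4.14 with no filter on low counts, a filter it passed through its nTg level. The change of Klrd1 was -1.39 (SE 0.81, edgeR adjusted p = 0.18) in knockout mice. There, both groups were close to the limit of 3 UMIs that a count of 0 allows. The SOD1 and nTg libraries also entered the knockout comparisons in view when the members were chosen. For Klrb1c and Klrd1 in intact mice no p is therefore given, and the changes are a description.

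BC064078 rose with the transgene in knockout microglia by 1.35 (SE 0.25, edgeR adjusted p = 7.0e-04), and in intact microglia, at under 1.4 CPM, the change was 0.55 (SE 0.37, edgeR adjusted p = 0.28). Clec2d had 14.8, 37.3 and 39.9 CPM in SOD1 and 18.1, 27.7 and 21.0 in nTg, which overlapped (log2 change 0.91, SE 0.35, edgeR adjusted p = 0.065). Without SOD1 replicate 1, the lowest of the 3, the adjusted p was 0.0082, and without Clec7aKO replicate 4 it was 0.043. It had 23.8, 28.4, 27.8 and 35.3 CPM in SOD1_Clec7aKO and 29.2, 28.9, 33.9 and 13.3 in Clec7aKO (0.64, SE 0.31, edgeR adjusted p = 0.10). Whether the transgene changes differ between intact and knockout mice was not tested.

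These changes are relative to TMM scaling, which centres most genes on no change. With library size alone the median gene moved by -0.43 in intact and -0.48 in knockout microglia. Under that scaling, no member changed direction. Clec1a in intact mice (0.84, adjusted p = 0.063) and Klrb1c in knockout mice (adjusted p = 0.051) then lost their calls.

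Knockout against intact is described in the other classes too, with no p for a member or a gene of the lists, since the members were chosen with that contrast of these libraries in view. Outside microglia, Clec1a was higher in knockout than in intact OPC-like cells, opposite to its direction in microglia. It stood at 17.2, 20.0, 18.9 and 16.6 CPM in SOD1_Clec7aKO and at 15.8, 14.3, 17.8 and 14.5 in Clec7aKO, against 5.98, 6.18 and 4.67 in SOD1 and 6.86, 4.82 and 3.38 in nTg. The 8 knockout libraries (16.9 ± 2.03, SD) were above the 6 intact ones (5.32 ± 1.26) without overlap, as for 0.128% of the 13251 genes fitted, of which edgeR called 0.00755%. The log2 difference was 1.71 (SE 0.18). This class was fitted after its Clec1a values had been seen. Endothelial markers in OPC-like cells had a median of at most 0.404% of their endothelial level and microglial markers at most 4.49% of their microglial level. In endothelial-like cells, which held the most Clec1a UMIs of any class (2894), the knockout libraries spanned 21.9 to 41.5 CPM and the intact ones 16.3 to 29.5, and the difference was 0.32 (SE 0.16).

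Ependymal-like cells had higher Clec1b in the knockouts. The level was 20.1, 21.5, 33.6 and 47.1 CPM in SOD1_Clec7aKO and 32.7, 25.8, 39.2 and 35.5 in Clec7aKO, against 13.6, 4.12 and 10.3 in SOD1 and 12.6, 11.2 and 17.5 in nTg. As for 0.0981% of genes, every knockout library (31.9 ± 9.15, SD, n = 8) was above every intact one (11.5 ± 4.42, n = 6). The log2 difference was 1.52 (SE 0.22), and between 1.29 and 1.74 without any 1 library. Of 15283 genes, 4 of them members, edgeR called 0.0458%. The highest value, 47.1, came from a library with 28 ependymal-like cells. Ependymal markers in microglia-like cells had a median of at most 0.307% of their ependymal level.

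Clec9a, whose gene overlaps Clec1b, lay at 1.25 to 4.46 CPM in knockout and 0 to 1.33 in intact ependymal-like cells, from at most 41 UMIs a library (log2 difference 2.09, SE 0.48). Of the 60-base words at Clec1b transcript ends, 5.84% are shared with Clec9a, so molecules in the overlap could be split between them. BC064078 lay at 15.7 to 32.2 CPM in knockout and 10.9 to 25.8 in intact ependymal-like cells (0.74, SE 0.16). Clec2d lay at 0 to 4.76 and 3.35 to 9.97 CPM (-0.98, SE 0.27). Clec9a, BC064078 and Clec2d overlapped between genotypes in ependymal-like cells.

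In astrocyte-like cells, the class with the most BC064078, the level was 83.1, 81.8, 102 and 146 CPM in SOD1_Clec7aKO, 48.1, 44.6, 46.3 and 62.6 in Clec7aKO, 50.9, 65.3 and 29.2 in SOD1 and 35.6, 32.7 and 28.5 in nTg. Knockout and intact libraries overlapped, and the log2 difference was 0.83 (SE 0.17). BC064078 was not among the 0.00789% of 12678 genes that edgeR called. A call under another tool would be no support, since the members were chosen with this contrast in view. With the transgene BC064078 rose in knockout astrocyte-like cells by 0.93 (SE 0.22, edgeR adjusted p = 0.0032), where 33.3% of genes were called, and in intact ones, with 32.4% called, the change was 0.56 (SE 0.25, edgeR adjusted p = 0.093). Microglial markers in astrocyte-like cells had a median of 4.16% to 19.3% of their microglial level in SOD1_Clec7aKO and 0.338% to 2.18% in Clec7aKO. In SOD1 it was 3.62% to 7.93% and in nTg 0.380% to 0.714%. The part of these markers' source in the BC064078 values was not tested.

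Endothelial-like cells had little BC064078, at 1.89 to 5.58 CPM in knockout and 0.472 to 1.69 in intact libraries, without overlap (as for 0.0379% of 13192 genes). The difference was 1.73 (SE 0.33). Microglial markers in endothelial-like cells had a median of 0.221% to 4.20% of their microglial level, and BC064078 in knockout microglia stood at 302% to 673% of its endothelial level. Their part in the endothelial values was not tested. The edgeR test called 0% of the genes, while 915 genes had an unadjusted p under 0.05 and DESeq2 called 10 genes. In T and NK-like cells BC064078 was at 0 to 29.5 CPM in knockout and 1.92 to 10.4 in intact libraries, and in border macrophage-like cells at 6.09 to 42.7 and 0 to 9.75, both from few UMIs. Clec12a in border macrophage-like cells lay at 224 to 438 CPM in knockout and 199 to 301 in intact libraries, and Clec2d in endothelial-like cells at 280 to 718 and 265 to 651, each overlapping. The Clec2d difference was -0.25 (SE 0.21).

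**Figure D3:**
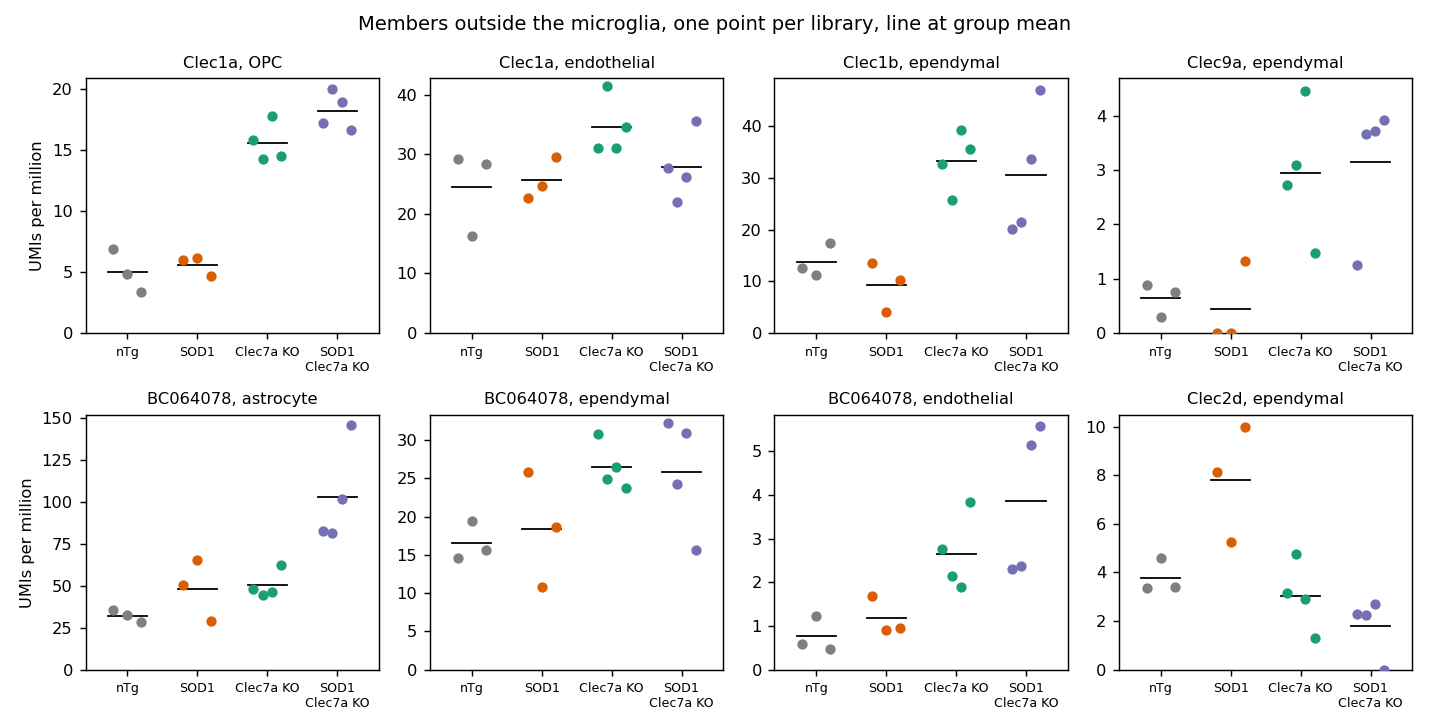
CPM per library of Clec1a, Clec1b, Clec9a, BC064078 and Clec2d in cell classes other than microglia, with points for libraries and bars for group means in the 4 groups. Clec1a in OPC-like cells (14.3 to 20.0 against 3.38 to 6.86) and Clec1b in ependymal-like cells (20.1 to 47.1 against 4.12 to 17.5) separate knockout from intact libraries.

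For the Klr members, T and NK-like cells of SOD1_Clec7aKO were compared with those of SOD1, the only knockout and intact groups of like transgene with at least 3 libraries of 20 such cells each. Klrb1c stood at 136, 122 and 138 CPM in SOD1 and at 19.5, 5.34, 27.5 and 35.3 in SOD1_Clec7aKO, from 39 to 98 and from 5 to 12 UMIs a library. The groups did not overlap, and the log2 difference was -2.83 (SE 0.52). The edgeR test called 0.0836% of 4782 genes, and 15.9% of genes did not overlap between these libraries.

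Klrk1 stood at 369, 435 and 346 CPM in SOD1 and 203, 90.7, 63.0 and 127 in SOD1_Clec7aKO, also without overlap (-1.53, SE 0.33). Klrd1 stood at 146, 328 and 208 against 112, 46.2, 70.8 and 148, which overlapped (-1.26, SE 0.54). Clec2d was at 101, 165 and 185 against 56.9, 59.6, 118 and 56.5 (-0.98, SE 0.35). The edgeR test called none of the 4 members fitted (562 genes had an unadjusted p under 0.05). Whether single members were called depended on the tool and on the libraries used. No such call is support, because the members were chosen with this contrast in view. For the same reason their median of -1.40, against 0.02 over all genes, is a description. Klrb1c had more UMIs in SOD1 than in the knockout groups, so that it could pass the filter on low counts through SOD1. In the 3 Clec7aKO libraries with at least 20 such cells, of 20 to 45 cells each, Klrd1 stood at 63.3, 269 and 612 CPM, the last above every SOD1 library. Klrk1 stood there at 194, 269 and 265 and Klrb1c at 8.44, 13.1 and 102, the latter from 2 to 5 UMIs a library.

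Single markers within the class differed between the groups to unlike degrees. Ncr1 lay at 107 to 123 CPM in SOD1 and 22.2 to 71.5 in SOD1_Clec7aKO, and Prf1 at 86.9 to 121 and 23.6 to 79.6. The other markers overlapped. In the same order, Eomes lay at 44.2 to 55.6 and 7.06 to 48.7, and Gzma at 83.4 to 271 and 11.8 to 99.1. Cd3e lay at 389 to 467 and 200 to 1108, and Trac at 261 to 342 and 109 to 382. Csf1r, a gene of microglia and macrophages, lay at 160 to 473 and 468 to 1083, and C1qa at 936 to 2747 and 1885 to 8686. The part of these differences in the Klr values was not tested. The NK sub-cluster was found with genes such as Klrb1b and Klrb1f among those that lead it, and Klrb1b was lower in the knockout, so its size is not compared and the knockout can bear on which cells it holds. Within it, of 6 to 41 cells a library, Klrb1c was at 574, 359 and 527 CPM in SOD1 and 70.1, 95.7, 382 and 159 in SOD1_Clec7aKO, the latter from 2 to 7 UMIs. Klrd1 there was at 422, 748 and 674 against 806, 415, 328 and 756, and Klrk1 at 675, 870 and 806 against 841, 415, 218 and 557. In the NK sub-cluster, Klrd1 and Klrk1 therefore overlapped between the groups, and Klrb1c overlapped in 1 library.

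**Figure D4:**
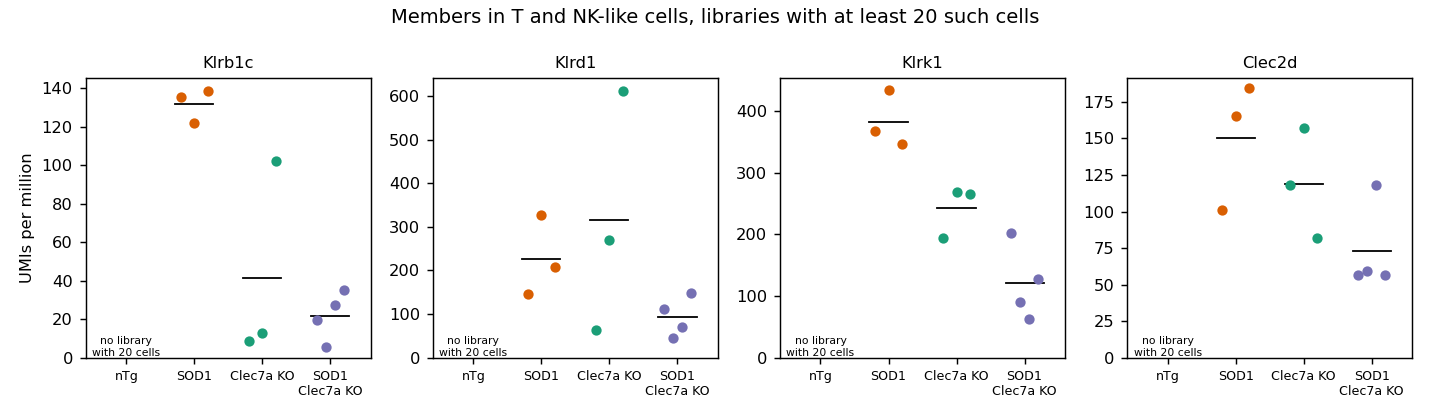
CPM of Klrb1c, Klrd1, Klrk1 and Clec2d in T and NK-like cells, 1 point for each library with at least 20 such cells and a bar for each group mean. Klrb1c lies at 122 to 138 in SOD1 and at 5.34 to 35.3 in SOD1_Clec7aKO, and nTg has no library with 20 cells.

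Other lectin-like genes of the cluster were counted from a list of 34, of which 32 were in the files. In microglia 6 could be fitted, and none was called between knockout and intact libraries. With the transgene, 4 of the 6 were called higher and 2 lower in intact microglia, where 18.5% and 12.3% of all genes were. Klrb1b, an inhibitory receptor of the same family as Klrb1c that binds Clec2d, rose by 6.20 (SE 0.48) and Klrb1a by 4.40 (SE 0.60). Both passed the filter on low counts through the transgenic groups, so no p is given for them, and the counts here are a description. With no filter the changes were 6.22 and 4.42. Cd69, an early activation marker, rose by 3.32 (SE 0.43, edgeR adjusted p = 7.7e-05), and Clec2i rose by 2.40 (SE 0.53, edgeR adjusted p = 0.0037). BC035044 fell by 1.41 on the log2 scale (SE 0.16, edgeR adjusted p = 2.5e-05). Clec2h, the other gene called lower, had 4 UMIs in SOD1 and 19 in nTg, where 1 library had none, so the groups overlapped. Clec2h was highest in Clec7aKO (49 UMIs) and could pass the filter through the groups without the transgene, so no p is given for it. In knockout mice Klrb1a, Klrb1b and Cd69 rose and BC035044 fell, where 24.1% of all genes rose and 19.1% fell. Klrb1b stood at 15.1 ± 6.08 CPM (SD, n = 3) in SOD1 and 3.53 ± 0.952 (n = 4) in SOD1_Clec7aKO microglia, and Klrb1a at 8.99 ± 6.42 and 16.4 ± 3.01.

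In T and NK-like cells, 9 of the list could be fitted, and edgeR called 2 lower in SOD1_Clec7aKO than in SOD1, where it called 0.0836% of all genes. Klrb1b lay at 83.2 to 90.4 CPM in SOD1 and 0 to 7.06 in SOD1_Clec7aKO (-4.11, SE 0.44). Klrb1b had 138 UMIs in SOD1 and 10 in the 7 knockout libraries, so that it passed the filter through SOD1. Klrc2, a partner of Klrd1, lay at 130 to 150 and 7.06 to 43.3 (-2.40, SE 0.36). In ependymal-like cells 1 of 3 was called, against 0.0458% of all genes: Klrb1f lay at 2.14 to 5.54 CPM in the intact libraries and had 0 UMIs in all 8 knockout libraries, so that it passed the filter through the intact ones.

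Of 13 ligands and adaptors of these receptors, 9 were fitted in microglia. In intact mice 4 of the 9 rose with the transgene, where 18.5% of all genes rose: the adaptors Tyrobp (log2 change 1.50, SE 0.23, edgeR adjusted p = 2.5e-04) and Hcst (1.32, SE 0.30, edgeR adjusted p = 0.0049), and the ligand genes Ulbp1 (1.28, SE 0.22) and H2-T23 (0.91, SE 0.24). In knockout mice, where 24.1% of all genes rose, the same 4 rose, with Ptpn6 also called at 0.48 (SE 0.13), a change no larger than the shift of the median gene under library-size scaling, and in the knockout against intact comparison none was called. Of 25 neighbouring genes of other families, 20 were fitted in microglia. With the transgene 5 of the 20 were called in intact and 6 in knockout mice, against 30.8% and 43.3% of all genes. Bcl2l14, Foxm1, Hebp1 and Gabarapl1 rose and Crebl2 fell in intact mice, by -0.64 to 2.07 on the log2 scale, and in knockout mice the same genes were called in the same directions, with Ddx47 at 0.35 (SE 0.13), which is smaller than that shift. Apold1, which had the most UMIs of these genes, stood at -2.37 (SE 0.60) between knockout and intact microglia, in which none of the 20 was called.

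Among all genes tested, the differences between knockout and intact cells were larger close to Clec7a (the plot of log2 differences by distance). In microglia the median absolute log2 difference was 0.73 over 21 genes within 1 Mb, 8 of them members, against 0.22 over 78 genes at 1 to 5 Mb, 0.14 over 216 genes at 5 to 20 Mb and 0.17 elsewhere. In ependymal-like cells it was 1.10 over 12 genes, 4 of them members, against 0.23, 0.13 and 0.14. The transgene changes in microglia were also larger within 1 Mb. Their median absolute log2 change there was 1.65 in intact and 1.58 in knockout mice, against 0.48 and 0.53 elsewhere. In microglia, larger values near Clec7a were thus not particular to the knockout comparison. In ependymal-like cells the transgene values were 0.35 and 0.26 within 1 Mb, against 0.18 and 0.22 elsewhere, in intact and knockout mice. In OPC-like cells (4 genes) they were 0.22 and 0.21 against 0.21 and 0.25. In endothelial-like cells (7 genes) they were 0.18 and 0.45 against 0.16 and 0.19. The knockout comparison gave 0.53 against 0.16 in OPC-like and 0.39 against 0.14 in endothelial-like cells. These values describe the region and were not tested, and the members were chosen from it. Summed over all barcodes of a library, BC064078 spanned 11.4 to 23.2 CPM in knockout and 1.81 to 7.33 in intact libraries, and Klrd1 0.314 to 0.811 and 0.823 to 2.64. All other members overlapped between knockout and intact libraries in these sums, and Klrd1 separated by a narrow margin. The barcodes come from cells freed with enzymes and cleared of myelin, so these sums do not stand for intact tissue. How many of all genes separate in them was not counted. There, a change in the number of cells and a change of RNA per cell cannot be told apart. Clec1a, with its opposite directions in microglia and OPC-like cells, spanned 1.65 to 12.1 CPM in knockout and 3.47 to 8.09 in intact libraries in these sums over all barcodes.

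**Figure D5:**
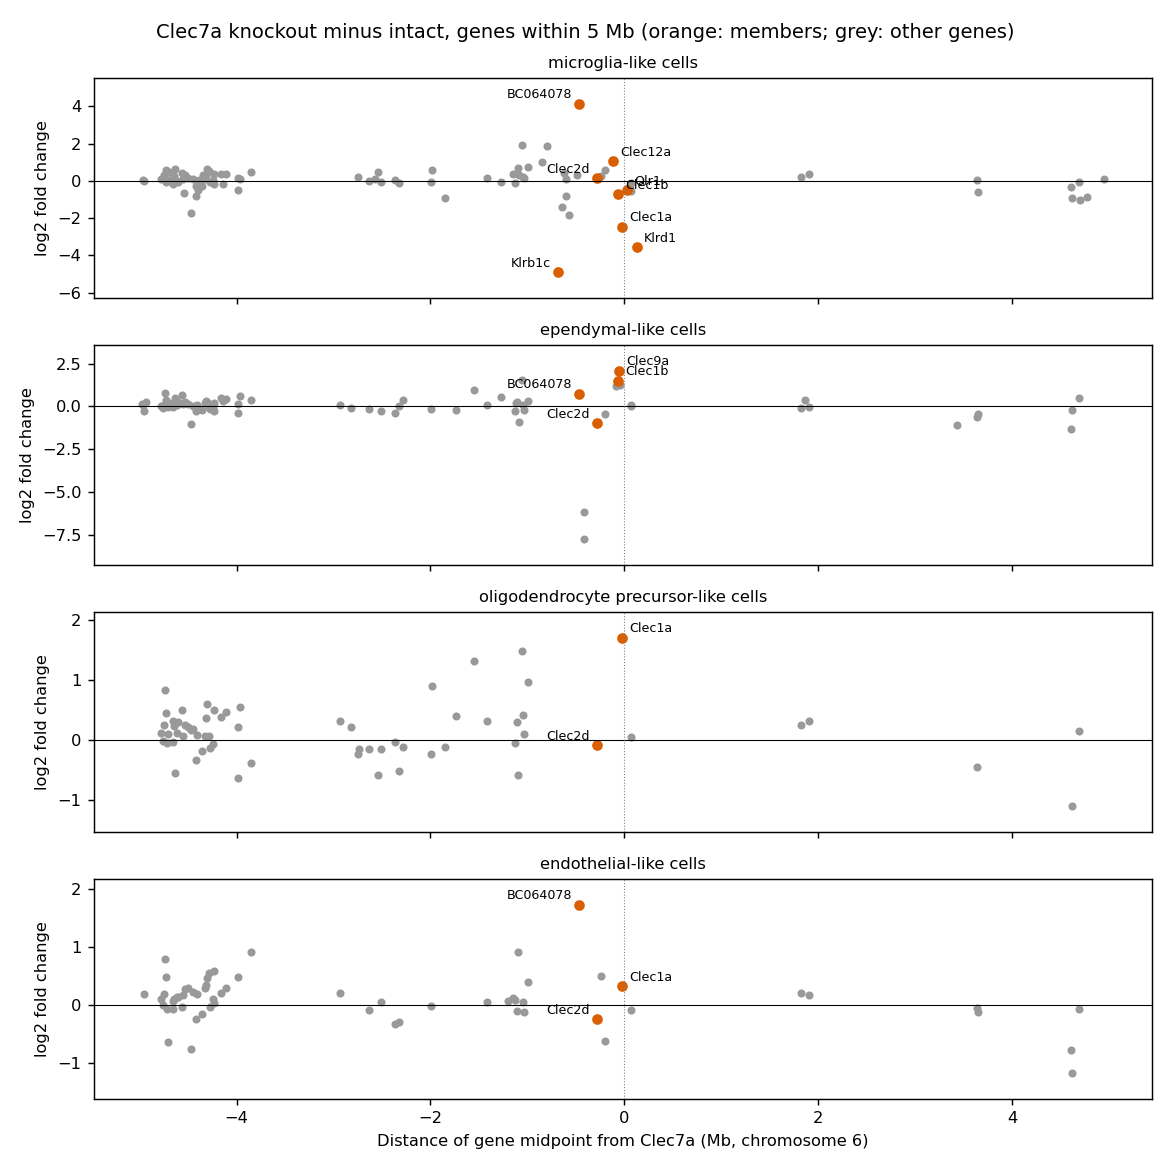
Log2 difference between Clec7a knockout and intact libraries (vertical axis) of genes within 5 Mb of Clec7a, by distance in Mb (horizontal axis), in microglia, ependymal, OPC and endothelial-like cells, with members in orange. Clec1a is at -2.46 in microglia and 1.71 in OPC-like cells, and BC064078 at 4.14 in microglia and 0.74 in ependymal-like cells.

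For each member, up to 3 genes with the most similar profile over the 11 named classes were found by Pearson's r of log2(CPM + 1). They were Ms4a4b (r = 1.00), Nkg7 (0.99) and Lat (0.99) for Klrk1, Clec2i (0.99), Gpr171 (0.98) and P2ry10 (0.98) for Klrd1, and Adgrg5 (0.99), Txk (0.98) and Crtam (0.98) for Klrb1c. Clec12a was closest to Clec4n (0.99), Aoah (0.98) and Gm26947 (0.98), Olr1 to Fcrl1, Gm38843 and Nlrp3 (0.98 each), and Clec2d to Slfn5 (0.96), Sp100 (0.95) and Map3k3 (0.95). Clec1b was closest to Dnaaf3 (0.97) and Eif5 (0.96), Clec9a to Gm4708 (0.98), Plet1 (0.93) and Gm31243 (0.89), Clec1a to Aldh1a3 (0.90), Kcnj15 and Edn3 (0.87 each) and BC064078 to Rpl17-ps8 (0.88), Prss30 (0.86) and Dcxr (0.85). The classes share libraries, and these values carry no test.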

How the data were processed

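The authors deposited raw UMI counts per gene and barcode for 14 libraries, with no normalization. The submitters' processing notes name Cell Ranger, Seurat, DESeq2 and mm10, and the matrix headers give software version 3.0.2. Barcodes with at least 500 genes, 1000 UMIs and at most 15% mitochondrial UMIs were kept, doublets were removed by Scrublet score at 0.8% per 1000 barcodes (7577 barcodes), and 89225 cells were clustered with scanpy 1.11.5 (2000 variable genes, 30 components, 15 neighbours, Leiden resolution 1.0). The 5 of the members and Clec7a that were among the variable genes were left out. Of 29 clusters, those named by marker genes are called "-like", and others stayed unnamed. A threshold on the second-best class, a log2 fold of 5.0, was set after the data were seen.

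Counts were summed per library and class and fitted with edgeR 4.0.16 (R 4.3.3, TMM, filterByExpr, quasi-likelihood, two-sided, Benjamini-Hochberg over all genes, adjusted p under 0.05), with a term per group over the libraries of all groups with at least 20 cells. The filter keeps a gene that reaches a minimum in as many libraries as the smallest group holds, whichever they are, so a member high in 1 group can pass through it. An SE is the log2 change divided by the square root of its F value. The procedure was tested on simulated data. DESeq2 1.42.0 was an alternative. Counting can be shared between genes of similar or overlapping sequence, and strand use is not given in the sources used here. A count of 0 allows up to 3 UMIs, which covers counting error only. Gene identifiers matched GENCODE vM21 for 55154 of 55335 genes, ignoring versions.

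The members, gene lists and contrasts were chosen with earlier results of these data known, so tests of knockout against intact libraries are given as counts of calls, with no p for a listed gene. Named beside the members and Clec7a were list genes with an adjusted p under 0.05 (at most 6 per list and contrast) and the gene of each list with the most UMIs. Replicate numbers were checked for pairing: over 19 pairs of same-numbered libraries the correlation of deviations ran from -0.19 to 0.39 and exceeded 0.1 in 9, so they were not treated as pairs. Columns of other samples numbered 0. A further sequence and a further gene of similar profile are not reported here.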

Additional observations from a re-analysis of the deposited data

Results flagged for a closer look

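Among 41 groups of 4 libraries examined for 1 value far from the rest, 3 stood out, where chance alone marks about 1 in 20. Clec9a in ependymal-like cells was at 1.25 CPM in SOD1_Clec7aKO replicate 1 and at 3.67 to 3.93 in the other 3 libraries. Clec2d in ependymal-like cells was at 0 CPM in SOD1_Clec7aKO replicate 4, which held 28 such cells, and at 2.26 to 2.72 in the others. Clec2d in T and NK-like cells was at 118 CPM in SOD1_Clec7aKO replicate 3 and at 56.5 to 59.6 in the others.

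Clec1a went in opposite directions between knockout and intact libraries in 2 cell classes, with a log2 difference of -2.46 in microglia-like and 1.71 in OPC-like cells. In each class all 8 knockout libraries lay on 1 side of all 6 intact ones. The difference between the classes was not tested.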

How the results depend on the processing

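No called change, and no difference over 2 SE from 0, changed sign under the alternatives run for the members. Smaller differences of Clec2d (microglia, astrocyte and OPC-like cells), Olr1 (Clec7aKO against nTg microglia) and Clec7a (OPC-like cells) did under some. Between knockout and intact microglia the log2 difference ran from 4.01 to 4.35 for BC064078, -2.59 to -2.32 for Clec1a, -4.11 to -3.37 for Klrd1 and -5.19 to -3.59 for Klrb1c, and in OPC-like cells from 1.57 to 1.86 for Clec1a. The count of genes called between knockout and intact libraries was 0 in endothelial-like cells, and 10 with DESeq2, 199 with no filter on low counts, 4 with library number as covariate, 1 with the replicate block and 0 to 1 without each replicate in turn. In ependymal-like cells 7 became 16 with DESeq2, 212 with no filter, 13 with the library number and 5 to 11 without each replicate (11 without SOD1 replicate 1). In astrocyte-like cells 1 became 4 with DESeq2, 259 with no filter, 0 with the Xist term, 0 at Leiden resolution 0.5 and 0 to 7 without each replicate (7 without SOD1_Clec7aKO replicate 3). In T and NK-like cells 4 became 23 with DESeq2, 169 with no filter, 123 with the library number, 7 with the Xist term, 11 with only the groups compared and 2 to 7 without each replicate. Why they moved was not tested.

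With the replicate number as a block, 1 gene was called in endothelial-like, 8 in ependymal-like, 1 in astrocyte-like and 23 in T and NK-like cells, and 5873 and 7926 with the transgene in intact and knockout microglia. The numbers do not pair the libraries, and the block moved Klrb1c in T and NK-like cells to -3.16.

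Without each replicate in turn, the log2 transgene changes in intact microglia ran from 4.39 to 5.34 for Olr1, 4.94 to 6.84 for Klrb1c, 2.87 to 4.35 for Clec12a and -4.32 to -3.82 for Klrd1. In microglia the transgene counts, 5064 in intact and 7110 in knockout mice, ran from 3472 to 5489 and from 5978 to 7620 without each replicate. With the Xist term they were 3410 and 6924, and with library number as covariate 7122 and 8929. With no filter, edgeR also called Clec2d with the transgene in intact microglia (0.93). It then called more members between knockout and intact libraries too, which is no support because they were chosen with that contrast in view. Depth limits Clec9a, Klrk1, Klrd1 and Klrb1c in microglia, where many libraries held at most 3 UMIs. It also limits Clec1a in Clec7aKO microglia, which held 11 UMIs.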

Other observations

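An unnamed cluster of 7258 cells led by Gpnmb and Mmp12 made up 10.4% ± 0.34 (SD, n = 3) of SOD1 cells and 15.03% ± 6.34 (n = 4) of SOD1_Clec7aKO cells, against 0.0186% in nTg and 0.0241% in Clec7aKO. It scored highest for microglia but stayed outside the microglia-like class. It held the genotype pattern of 3 members: BC064078 was at 15.2 CPM in SOD1_Clec7aKO and 0.80 in SOD1, Clec1a at 0.63 and 2.93, and Klrb1c at 0.34 and 4.01. Olr1 was at 42.1 CPM in SOD1_Clec7aKO and 73.5 in SOD1, and Clec12a at 15.7 and 14.7. These are sums over libraries, given with no test.

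Clec7a was itself listed in T and NK-like cells, at 88.5 to 229 CPM in the SOD1 libraries and at most 1.78 in knockout ones, where microglial genes such as C1qa (936 to 2747 CPM in SOD1) were also present. Their part in the Clec7a value was not tested.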
